A study of Arabidopsis thaliana with 9 samples.

Results

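Many probe sets of the Affymetrix ATH1 array read a single Arabidopsis gene whose symbol in the platform annotation is a locus code. Of these, 22 were bright on every array and had nearly equal group means in 3 states of cultured cells. They were chosen by 2 limits. The intensity had to be at least 1500 on all 9 arrays, which 364 of the 11933 locus-code probe sets met, and the highest and the lowest of the 3 group means of log2(intensity + 16) had to lie at most 0.25 apart, which 22 of those 364 met. The 22 probe sets read 22 genes. The cells were the T87 suspension line of Arabidopsis thaliana, labelled wild type, and each group held 3 biological replicates. Protoplasts were 4-day-old cells digested for 1.5 h with 1% cellulase and 0.5% pectolyase, in 0.35 M mannitol, then washed 3 times and kept for 3 h in medium with 0.4 M mannitol. Mannitol-treated cells were 4-day-old cells that kept their walls and spent 3 h in medium with 0.4 M mannitol. Intact cells were 4-day-old cells taken as they were. Intact cells had no mock change of medium in the labels, so mannitol cannot be told apart from the new medium. No undigested cells were washed or given the added 1.5 h in mannitol. Wall loss thus cannot be told apart from the enzymes, the washing and the longer time in mannitol.

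Mannitol is an osmolyte that draws water out of plant cells, and cellulase with pectolyase removes the cellulose and pectin of the primary wall, leaving cells bounded by the plasma membrane alone. Plant cells respond to both with broad changes in transcript levels. Genes whose transcripts stay level across such states are sought as references for measuring others, and the usual ones encode actin, ubiquitin or the glycolytic enzyme glyceraldehyde-3-phosphate dehydrogenase (GAPDH). An array measures a transcript relative to the rest of the labelled RNA, so a level value depends on how arrays are scaled to each other.

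The deposited intensities were linear, with each array scaled to a trimmed mean of 500. Array medians were 115 to 130 in protoplasts, 145 to 162 in mannitol-treated cells and 152 to 156 in intact cells. The arrays of replicate 3 deviated from their group means together, with correlations of 0.14 to 0.32 between groups across the 13513 one-gene probe sets. Markers of root hairs, the expansin genes EXPA7 and EXPA18, stayed at intensities of 6.21 to 43.8 in protoplasts, 2.96 to 36.9 in mannitol-treated cells and 6.21 to 51.0 in intact cells. GUT2, a xylan gene used as a marker of xylem, read 94.3 to 110 in protoplasts, 89.6 to 98.5 in mannitol-treated cells and 104 to 114 in intact cells. The markers of green tissue were lower in protoplasts, with no overlap between their arrays and those of both other groups. The light-harvesting gene LHCB4.1 read 1660 to 1932 in protoplasts, 2461 to 3154 in mannitol-treated cells and 2842 to 3110 in intact cells. LHCB4.2 read 75.2 to 204 in protoplasts, 436 to 485 in mannitol-treated cells and 227 to 269 in intact cells, and LHCB4.3 read 149 to 341 in protoplasts, 635 to 972 in mannitol-treated cells and 460 to 973 in intact cells. PSAN, of photosystem I, read 58.9 to 112 in protoplasts, 666 to 849 in mannitol-treated cells and 569 to 905 in intact cells. The part of these genes' shift in the results was not tested.

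On the deposited scale, near-equal group means were uncommon among bright locus-code genes. The spread, meaning the highest minus the lowest group mean on the log2 scale, had a median of 0.80 over the 364 and reached 3.22, and 137 of them (37.6%) had a spread above 1. The 22 genes were 6.04% of the 364. Of all 11933 locus-code probe sets, with a median intensity of 106, 1540 (12.9%) lay within 0.25. Among the 86 equally bright probe sets with a symbol other than a locus code, 13 (15.1%) kept within 0.25. The widest spread was that of AT4G19880, which read 15672, 14759 and 20753 in protoplasts, 7184, 7994 and 7441 in mannitol-treated cells and 1546, 1839 and 2017 in intact cells. The members just inside the limit of 0.25 were AT1G65720, AT2G10640 and AT3G22850, each with a spread that rounds to 0.25. The genes just outside the limit were AT3G43740 with 0.28, AT2G46170 with 0.29 and AT3G30396 with 0.29.

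**Figure D1:**
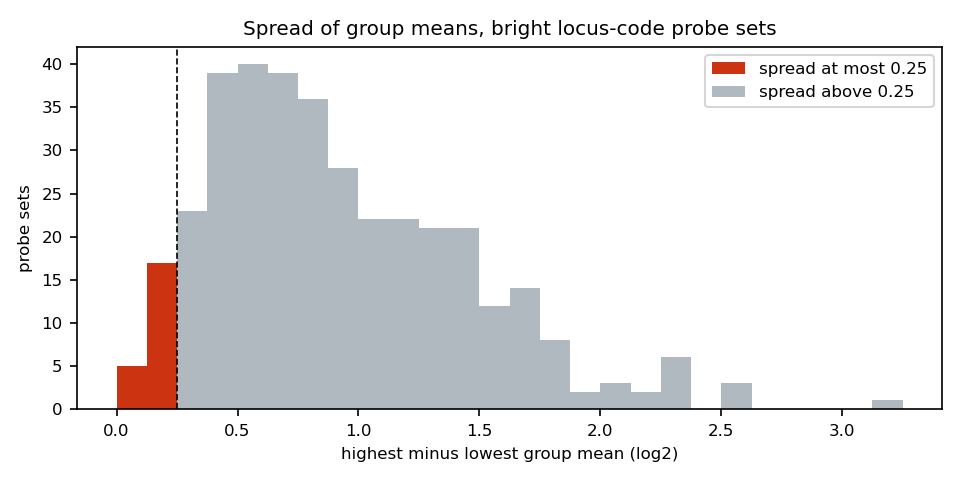
Histogram of the spread of group means, in log2 units, over the 364 bright locus-code probe sets, with the 22 at or under the limit of 0.25 in red and the limit dashed. The 22 form the low end of a distribution with a median of 0.80 and a highest value of 3.22.

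The annotation gives little on what these genes do. Per the gene table, 19 are protein-coding and 3 are pseudogenes, and 21 carry no name beyond the locus code and clone names. The one with a name is AT2G23070, listed there as CKA4 and CK2 alpha cp, a catalytic alpha subunit of the protein kinase CK2. CK2 is a serine/threonine kinase found throughout eukaryotes that is active without a second messenger. The roles of the others are not given in the sources used here, so the genes are described by locus code, in order of spread.

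The smallest spread was that of AT1G76140, at 0.06. It read 1862, 2084 and 2633 in protoplasts, 2033, 1918 and 2599 in mannitol-treated cells and 2050, 2068 and 2693 in intact cells. Its replicates differed more than its groups did, with an SD within groups of 0.24 on the log2 scale, and the highest array of every group was replicate 3. AT1G80040 had a spread of 0.07 and read 1772, 1741 and 2026 in protoplasts, 1803, 2079 and 1870 in mannitol-treated cells and 2102, 1776 and 1615 in intact cells. AT3G15710 had a spread of 0.08 and read 2079, 2315 and 2570 in protoplasts, 2515, 2362 and 2449 in mannitol-treated cells and 2355, 2219 and 2725 in intact cells. In both genes all 3 groups overlapped and the ratio of the highest to the lowest array was 1.30 and 1.31. AT5G43460, with a spread of 0.10, was brighter. It read 5661, 5797 and 4400 in protoplasts, 5774, 6286 and 4504 in mannitol-treated cells and 5913, 6030 and 3728 in intact cells. Here replicate 3 was the lowest array of every group, and its SD within groups, 0.30, was the largest of the 22. AT3G42050 had a spread of 0.10 and read 2687, 2773 and 2985 in protoplasts, 3098, 3240 and 2280 in mannitol-treated cells and 2878, 3153 and 3032 in intact cells. Only its mannitol-treated replicate 3 lay outside the range of 2687 to 3240 that held the other arrays.

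**Figure D2:**
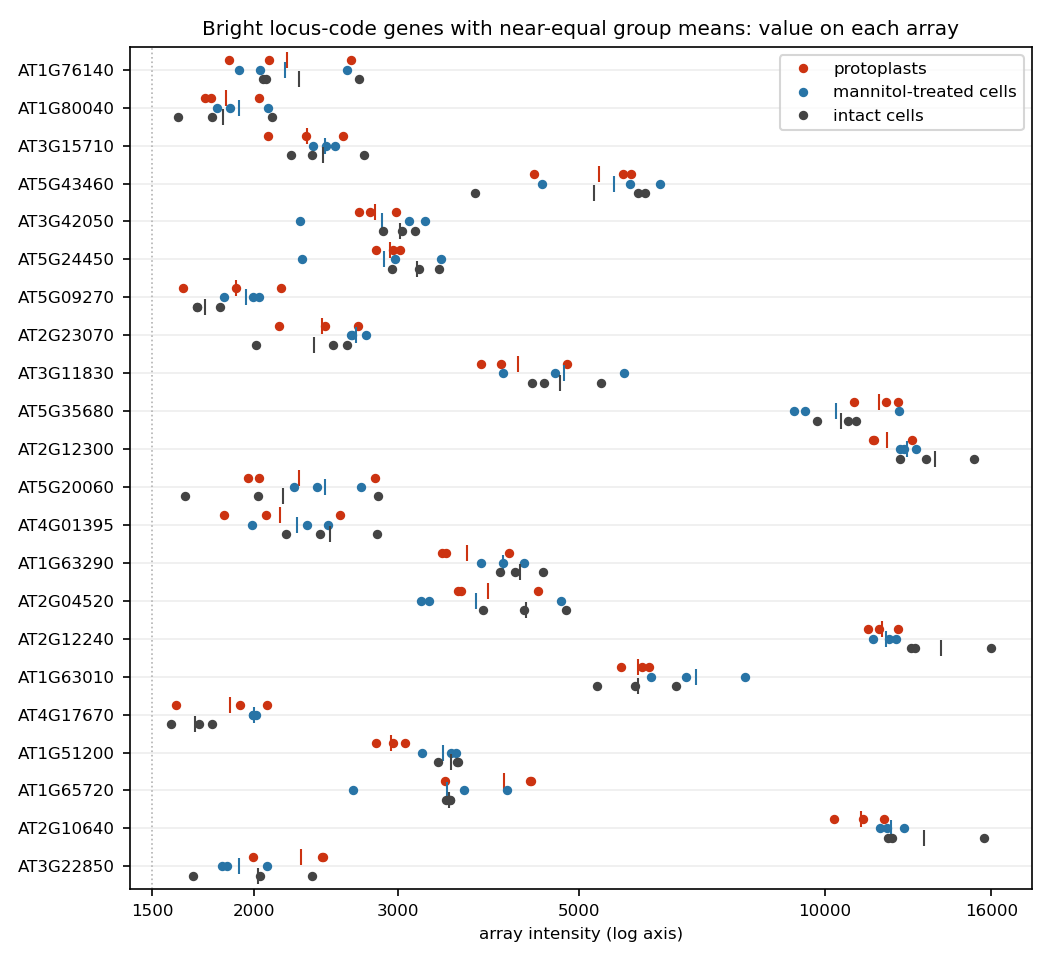
Intensity of each of the 22 genes on each of the 9 arrays, on a log axis, in order of spread from the smallest at the top, with a tick at each group mean and a dotted line at the lower limit of 1500. AT5G35680 and the pseudogenes AT2G12300, AT2G12240 and AT2G10640 are the brightest rows, and in most rows the groups overlap.

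The CK2 gene CKA4 (AT2G23070) had a spread of 0.18. It read 2149, 2445 and 2682 in protoplasts, 2628, 2743 and 2633 in mannitol-treated cells and 2598, 2502 and 2012 in intact cells. Its mannitol-treated arrays all lay above its intact arrays, by 0.18 ± 0.17 between the means on the log2 scale (SE, n = 3 each), while its protoplast arrays overlapped both groups. Mean intensities were 2425 ± 267 in protoplasts, 2668 ± 65.1 in mannitol-treated cells and 2371 ± 315 in intact cells (SD, n = 3). AT5G24450 had a spread of 0.15 and read 3021, 2824 and 2963 in protoplasts, 2978, 3385 and 2290 in mannitol-treated cells and 2953, 3367 and 3190 in intact cells. Mannitol-treated replicate 3 was its lowest array, as it was for AT3G42050. AT5G09270, with a spread of 0.16, read 1637, 2157 and 1903 in protoplasts, 1837, 1995 and 2031 in mannitol-treated cells and 1705, 1816 and 1702 in intact cells. AT3G11830, with 0.18, read 3793, 4018 and 4840 in protoplasts, 5677, 4674 and 4035 in mannitol-treated cells and 4527, 5326 and 4378 in intact cells. In AT5G09270 the mannitol-treated arrays lay above all intact arrays, whereas in AT3G11830 every pair of groups overlapped. AT5G20060, with a spread of 0.20, read 2031, 1964 and 2813 in protoplasts, 2241, 2390 and 2708 in mannitol-treated cells and 1648, 2022 and 2841 in intact cells. AT4G01395, with 0.21, read 2547, 1836 and 2066 in protoplasts, 1987, 2320 and 2464 in mannitol-treated cells and 2410, 2828 and 2190 in intact cells. Both varied more from array to array than most of the 22, with ratios of the highest to the lowest array of 1.72, the largest of the 22, and 1.54.

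The brightest members were 3 pseudogenes of chromosome 2 and AT5G35680. AT5G35680 read 11875, 10854 and 12291 in protoplasts, 9171, 9453 and 12333 in mannitol-treated cells and 10684, 9789 and 10939 in intact cells, with a spread of 0.19. It was one of 3 members with their highest mean in protoplasts. The pseudogene AT2G12300 read 11486, 11470 and 12801 in protoplasts, 12922, 12510 and 12384 in mannitol-treated cells and 15250, 13322 and 12371 in intact cells. AT2G12240 read 11673, 12283 and 11310 in protoplasts, 12243, 12000 and 11473 in mannitol-treated cells and 15987, 12762 and 12909 in intact cells. AT2G10640 read 10277, 11138 and 11838 in protoplasts, 12507, 11707 and 11920 in mannitol-treated cells and 15664, 11943 and 12077 in intact cells. The 3 pseudogenes gave nearly the same value on each array, each within 0.06 on the log2 scale (root mean square over the arrays) of their joint mean, and intact replicate 1 was the highest array of all 3. Of all other probe sets, the nearest to that joint mean was the pseudogene AT3G30396 of chromosome 3, at 0.09, and it missed the limit with a spread of 0.29. All 4 are read by probe sets with the suffix _x_at, which the array's maker gives to sets with probes that match other sequences too. The other 19 members are read by sets with the plain suffix. Which transcripts the 3 pseudogene sets read was not tested, and they were not shown to be 3 separate signals. In genome order, 5 listed genes lie between AT2G12240 and AT2G12300, and 199 between AT2G10640 and AT2G12240. Pseudogenes made up 3 of the 22 members, against 4 of the other 342 bright locus-code probe sets (1.17%) and 993 of all 11933 (8.32%).

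AT1G63010 was next in brightness. It read 5976, 5633 and 6089 in protoplasts, 6757, 6124 and 7994 in mannitol-treated cells and 5268, 5858 and 6576 in intact cells, with a spread of 0.23. Its mannitol-treated arrays all lay above its protoplast arrays, and its protoplast and intact means were 5899 ± 237 and 5901 ± 655 (SD, n = 3). AT1G63290, with a spread of 0.22, read 3439, 3399 and 4111 in protoplasts, 3792, 4041 and 4289 in mannitol-treated cells and 4522, 4000 and 4181 in intact cells. AT2G04520, also with 0.22, read 3553, 3588 and 4452 in protoplasts, 3273, 3199 and 4753 in mannitol-treated cells and 4818, 3812 and 4284 in intact cells. In both the intact mean was the highest, and the groups overlapped.

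Among the other members close to the limit, AT1G51200 had the tightest replicates, with an SD within groups of 0.06. It read 2820, 2959 and 3064 in protoplasts, 3208, 3535 and 3483 in mannitol-treated cells and 3546, 3363 and 3558 in intact cells. Its protoplast arrays all lay below those of both other groups, so its groups separated although their means differed by 0.24 at most. AT4G17670 had a spread of 0.24 and read 2072, 1603 and 1924 in protoplasts, 1997, 2014 and 1994 in mannitol-treated cells and 1777, 1582 and 1715 in intact cells. Its mannitol-treated arrays, with a mean of 2001 ± 10.5 (SD, n = 3), lay above all intact arrays and within the range of the protoplasts. AT1G65720 read 4367, 4356 and 3431 in protoplasts, 3615, 4088 and 2646 in mannitol-treated cells and 3481, 3476 and 3441 in intact cells. AT3G22850 read 2422, 2431 and 1995 in protoplasts, 1826, 1855 and 2072 in mannitol-treated cells and 2358, 1683 and 2034 in intact cells. Both had their highest mean in protoplasts, and in both the groups overlapped.

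On the deposited scale, protoplasts seldom had the highest mean across the 22 genes. The highest mean was that of protoplasts in 3 genes, of mannitol-treated cells in 9 and of intact cells in 10, and the lowest was that of protoplasts in 9, of mannitol-treated cells in 6 and of intact cells in 7. Among the other 342 bright locus-code probe sets, protoplasts had the highest mean in 66, mannitol-treated cells in 74 and intact cells in 202, and protoplasts the lowest in 260. The members' median log2 difference was -0.06 for protoplasts against intact cells, -0.07 for protoplasts against mannitol-treated cells and -0.03 for mannitol-treated against intact cells. Over all 13513 one-gene probe sets, with a median intensity of 116, the medians were -0.10, -0.14 and 0.01. Without the dimmest 40% of these they were -0.45, -0.39 and -0.04. The members' differences chose them and are given as a description. None of the 22 was called in any comparison (limma, adjusted p under 0.05), nor did any reach an unadjusted p under 0.05. Of all one-gene probe sets, 44.8% were called for protoplasts against intact cells (15.8% higher and 29.1% lower), 38.8% for protoplasts against mannitol-treated cells (13.2% higher and 25.6% lower) and 7.24% for mannitol-treated against intact cells (3.56% higher and 3.68% lower). The rule chose on these contrasts, so nothing is read from the members' shares. A miss does not show equal levels. The standard errors of the members' differences, 0.15 to 0.24, set what could be seen with 3 arrays a group. Arrays of the groups did not overlap in 3 members for protoplasts against intact cells (52.5% of all one-gene probe sets), namely AT2G12240, AT1G51200 and AT2G10640, all lower in protoplasts. They did not overlap in 2 members, AT1G63010 and AT1G51200, for protoplasts against mannitol-treated cells (47.5% of all). For mannitol-treated against intact cells they did not overlap in 4 members (30.8% of all), with AT5G09270, AT2G23070 and AT4G17670 higher and AT2G12240 lower in mannitol.

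The SD within groups had a median of 0.15 over the 22 genes and ran from 0.06 in AT1G51200 to 0.30 in AT5G43460, against a median of 0.18 over the other 342. The limit on the spread can favour genes with close replicates, and the part of the choice in the lower SD was not tested. In 9 of the 22 the spread of the group means was smaller than the SD within groups. The ratio of the highest to the lowest array was 1.26 to 1.72, with a median of 1.43. Both measures contain the spread that the rule capped, so they describe the members and are not set against the other genes. In 9 of the 22 (40.9%) the arrays of replicate 3 lay on the same side of the mean of replicates 1 and 2 in all 3 groups, against 170 of the other 342 (49.7%) and 4709 of all 13513 (34.8%), so the members' share lay between those of both wider sets. The largest such shift was a fall in AT5G43460, whose replicate 3 differed by -0.38 in protoplasts, -0.42 in mannitol-treated cells and -0.68 in intact cells. AT5G20060 shifted the other way, by 0.49 in protoplasts, 0.22 in mannitol-treated cells and 0.63 in intact cells. AT1G76140 had 0.42 in protoplasts, 0.39 in mannitol-treated cells and 0.38 in intact cells, the most even shift of these 3 genes. Replicate 3 entered both limits of the choice, so these shifts are a description of genes chosen with it.

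**Figure D3:**
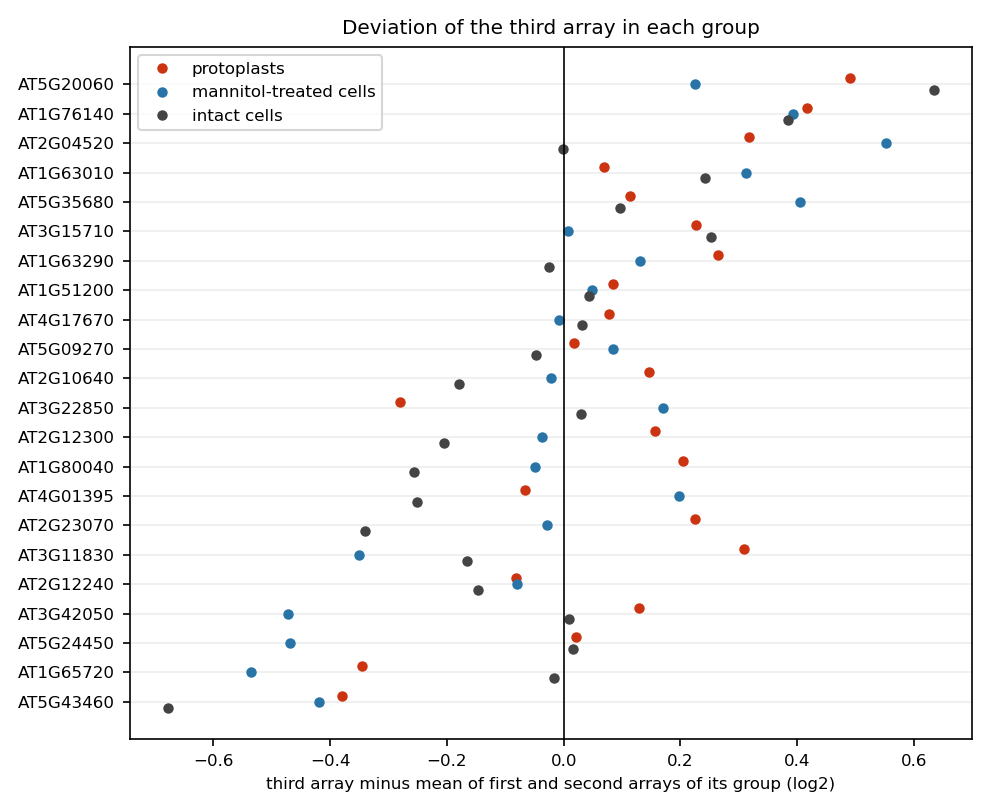
Difference between replicate 3 and the mean of replicates 1 and 2 of the same group, in log2 units, for each of the 22 genes, with a point per group. AT5G20060 and AT1G76140 lie to the right of 0 in all 3 groups and AT5G43460 to the left, at -0.38 to -0.68, while for most genes the groups fall on both sides.

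The choice was then repeated on 6 arrays, leaving out 1 replicate number, and the chosen genes were read in the 3 arrays left out. Without replicate 1, 21 of 378 bright genes were chosen, 18 of them members. In the replicate 1 arrays their highest and lowest values differed by a median of 0.39 on the log2 scale, against 1.00 for the bright genes not chosen. Without replicate 2, 25 of 375 were chosen, 17 of them members, with a median of 0.26 in the replicate 2 arrays against 0.90. Without replicate 3, 17 of 409 were chosen, 9 of them members, with a median of 0.48 in the replicate 3 arrays against 0.86. The median of the chosen genes was the lower one in each of the 3 repeats. The others were the bright genes set aside for group means more than 0.25 apart on the kept arrays. Any difference that lasts into the left-out arrays gives them the higher median, so the repeats are a description. All arrays also share the deposited scaling. Within 0.5 lay 15 of 21 chosen genes against 45 of 357 others in replicate 1 (71.4% against 12.6%). The counts were 19 of 25 against 60 of 350 in replicate 2 (76.0% against 17.1%), and 10 of 17 against 94 of 392 in replicate 3 (58.8% against 24.0%). At the limit of 0.25 itself, 6 of 21 chosen genes (28.6%) against 7 of 357 others (1.96%) lay within it in replicate 1, 10 of 25 (40%) against 11 of 350 (3.14%) in replicate 2 and 2 of 17 (11.8%) against 27 of 392 (6.89%) in replicate 3. Thus in replicate 3 the shares of chosen genes and others lay close together at that limit. Each of 7 genes, AT1G76140, AT1G80040, AT3G15710, AT5G43460, AT3G42050, AT5G24450 and AT5G09270, was chosen in all 3 repeats, 8 members in 2 of them and 7 in 1.

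A pair of genes chosen without replicate 3 shows how far that replicate could depart. AT2G17850, no member, read 2840, 2801 and 531 in protoplasts, 2956, 3359 and 546 in mannitol-treated cells and 2967, 2944 and 73.8 in intact cells. Replicates 1 and 2 held it level across the 3 states with a spread of 0.16, while replicate 3 was lower in every group and differed by 2.65 between groups. AT2G31390, also no member, read 6192, 5714 and 3514 in protoplasts, 6152, 6747 and 2510 in mannitol-treated cells and 7367, 6768 and 1252 in intact cells. Its spread was 0.25 on replicates 1 and 2, and its replicate 3 arrays were again the lowest of each group, with 1.48 between them.

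How level the 22 genes were depended on the scaling of the arrays. When each array was centred on its median probe set, the median log2 difference of all one-gene probe sets between protoplasts and intact cells moved to 0.20, against -0.10 as deposited, and that of the 22 members to 0.24, against -0.06. Then 7 of the 22 stayed within 0.25, namely AT3G15710, AT3G11830, AT2G12300, AT4G01395, AT1G63290, AT1G51200 and AT2G10640, while the largest spread of the 22 was 0.55, in AT1G65720 and AT3G22850. In all, 43 of the 364 bright probe sets met the limit on that scale. With quantile normalization 11 of the 22 stayed within it, with a median difference of the members of -0.16 between protoplasts and intact cells. With arrays centred on the hybridisation controls, which are added to the labelled RNA in fixed amounts, 3 of the 22 stayed, AT5G35680, AT1G65720 and AT3G22850. The median difference between protoplasts and intact cells was then -0.29 for the members and -0.34 for all one-gene probe sets. Those are mostly far dimmer than the members, so the medians of both sets are not like for like. No gene of the 22 kept within 0.25 on all 4 scales, and AT3G15710 was the only one to do so as deposited, median centred and quantile normalized, with spreads of 0.08, 0.23 and 0.17. AT5G35680, AT1G65720 and AT3G22850 did so as deposited, quantile normalized and centred on hybridisation controls. None of the 22 was called in a comparison on any of these scales (limma, adjusted p under 0.05). For protoplasts against intact cells, 6167 of all 13513 one-gene probe sets were called with median centring. The counts were 5879 with quantile normalization and 6103 with centring on hybridisation controls. The members were chosen for small differences on these same arrays, so nothing is read from their lack of calls.

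**Figure D4:**
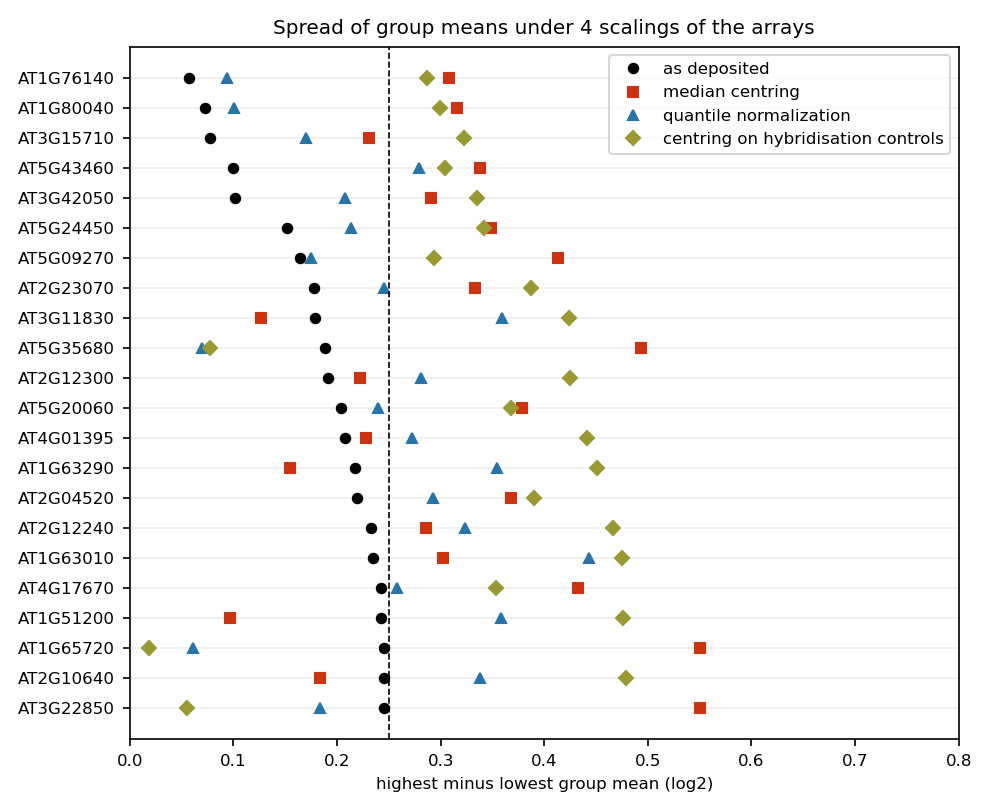
Spread of the group means of each of the 22 genes, in log2 units, as deposited and under 3 other scalings of the arrays, with the limit of 0.25 dashed. All black points lie left of the limit by the rule, and 7 genes lie left of it after median centring, 11 after quantile normalization and 3 after centring on hybridisation controls.

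The genes most used as references were not all level in these cells. The array carries control probe sets for actin, ubiquitin and GAPDH, which took no part in the choice and were tested in a model of all 22810 probe sets. All 6 actin sets were lower in protoplasts than in intact cells, by log2 differences of -0.72 to -1.34 (limma adjusted p of 0.01 at most), and lower than in mannitol-treated cells, by -0.82 to -1.20 (limma adjusted p of 0.01 at most). The 3′ actin set read 7207, 8485 and 11976 in protoplasts, 16037, 15495 and 18354 in mannitol-treated cells and 17708, 17260 and 23063 in intact cells. Protoplasts lay below all other arrays, with -1.09 ± 0.22 against intact cells (SE, limma adjusted p = 0.0026). Against mannitol-treated cells it had -0.88 ± 0.22 (SE, limma adjusted p = 0.01), and with median centring -0.57 (limma adjusted p = 0.059). The ratio of the 3′ to the 5′ actin set, a sign of RNA integrity, was 2.12 to 2.46 in protoplasts, 1.80 to 2.06 in mannitol-treated cells and 1.67 to 2.11 in intact cells. The same ratio for GAPDH was 1.01 to 1.07 in protoplasts, 0.926 to 1.03 in mannitol-treated cells and 0.961 to 1.20 in intact cells, where protoplasts overlapped both other groups. Another actin pair on the array had mean intensities of 4770 (3′) and 442 (5′) in protoplasts, 8337 and 1021 in mannitol-treated cells and 10239 and 725 in intact cells. By these means its ratio was highest in intact cells. Another GAPDH pair had 6953 and 4703 in protoplasts, 7879 and 6191 in mannitol-treated cells and 6780 and 5471 in intact cells. There the ratio of means was highest in protoplasts. The part of RNA integrity in the actin result was not tested.

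Ubiquitin went the other way. All 5 ubiquitin sets were higher in protoplasts than in intact cells, by 0.89 to 1.86 (limma adjusted p of 0.0013 at most). They were higher in protoplasts than in mannitol-treated cells too, by 0.44 to 0.76 (limma adjusted p of 0.0033 to 0.049). All 5 were also higher in mannitol-treated than in intact cells, by 0.45 to 1.10. Of these, 4 were called (limma adjusted p of 0.0096 to 0.048), and the 3′ set described next was not (limma adjusted p = 0.13). The ubiquitin sets carry the suffix _x_at or _f_at, not the plain one. Like the actin sets, they were not shown to be separate signals. The 3′ ubiquitin set read 18719, 22235 and 21279 in protoplasts, 14441, 14020 and 17350 in mannitol-treated cells and 11570, 10666 and 11256 in intact cells. The 3 groups did not overlap. Its difference was 0.89 ± 0.16 for protoplasts against intact cells (SE, limma adjusted p = 0.0013). For protoplasts against mannitol-treated cells it was 0.44 ± 0.16 (SE, limma adjusted p = 0.049), a call that ended with a pseudocount of 1, with a replicate block, with centring on hybridisation controls, and without any of 8 of the 9 arrays (limma adjusted p of 0.054 to 0.39). None of the 5 GAPDH sets was called in a comparison. The 3′ GAPDH set read 11952, 11622 and 14658 in protoplasts, 14841, 14473 and 16573 in mannitol-treated cells and 13350, 13604 and 14683 in intact cells. Protoplast and intact arrays overlapped, with a difference of -0.13 ± 0.16 (SE, limma adjusted p = 0.56). For protoplasts against mannitol-treated cells it had -0.27 ± 0.16 (SE, limma adjusted p = 0.22), and -0.51 with centring on hybridisation controls (limma adjusted p = 0.04). The spread of the GAPDH sets was 0.22 to 0.41, and 1 of the 5 kept within 0.25, whereas the actin sets had 1.09 to 1.34 and the ubiquitin sets 0.89 to 1.86. Without replicate 3, the 3′ actin set still differed between protoplasts and intact cells, by -1.16 (limma adjusted p = 0.0012), and the 3′ ubiquitin set by 0.88 (limma adjusted p = 0.0043).

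**Figure D5:**
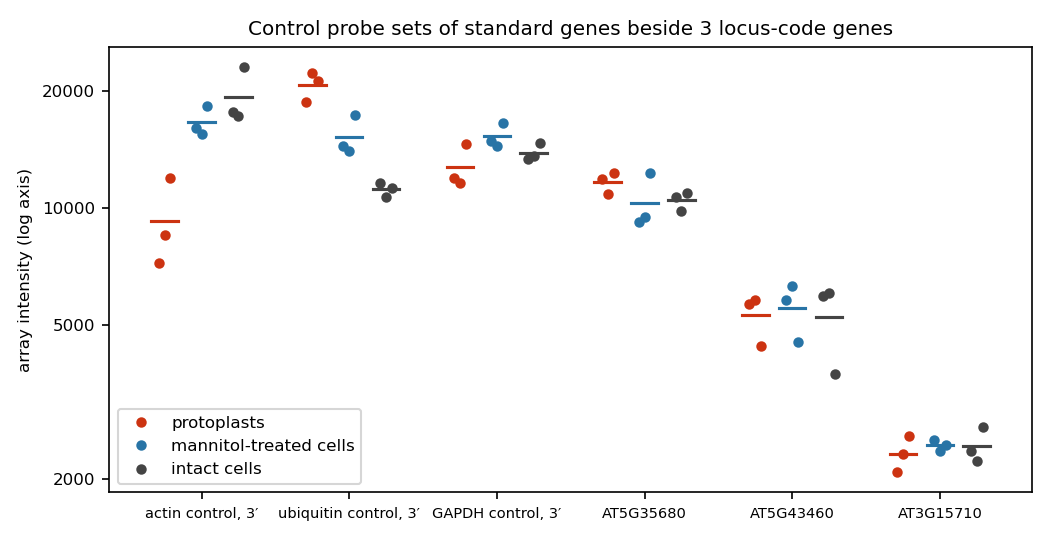
Intensity on each array, on a log axis, of the 3′ control probe sets for actin, ubiquitin and GAPDH and of 3 of the 22 genes, with a bar at each group mean (n = 3). Actin is lowest and ubiquitin highest in protoplasts, while the groups of AT5G35680, AT5G43460 and AT3G15710 overlap. The rule chose these 3 genes for near-equal group means on the same arrays, so their overlap is a description. It does not rank them against the controls.

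The one-gene probe set of GAPC2, a cytosolic GAPDH gene, lay just outside the limit. It read 16429, 18100 and 19678 in protoplasts, 21654, 22847 and 22721 in mannitol-treated cells and 21674, 21792 and 23688 in intact cells. Its protoplast arrays lay below all others, with a difference from intact cells of -0.31 ± 0.15 (SE, limma adjusted p = 0.13).

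The 22 genes were spread over all 5 chromosomes, with 6 on chromosome 1, 5 on chromosome 2, 4 on chromosome 3, 2 on chromosome 4 and 5 on chromosome 5. Bright locus-code probe sets numbered 74, 56, 83, 57 and 94 on chromosomes 1 to 5. Without the 3 pseudogenes, chromosome 2 was left with AT2G23070 and AT2G04520. Values of different members moved with each other in either direction from array to array. Over the 9 arrays, Pearson's r between pairs of the 19 protein-coding members had a median of -0.01 and ran from -0.93 to 0.92, whereas the pseudogene pairs had 0.78 to 0.94. These arrays share the scaling and the groups, so the correlations are a description.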

How the data were processed

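Per the labels' protocols, biotin-labelled cRNA was made from 750 ng of total RNA for ATH1 arrays. The authors deposited linear intensities. Their values show that each array was scaled to a trimmed mean of 500, leaving out the top and bottom 2%. For the software that summarised probes, a name was not given in the sources used here. Gene symbols came from the platform annotation, possibly old: beside 64 controls, 13513 probe sets had 1 symbol, 503 several and 8730 none. Biotypes, synonyms and gene order were looked up for these locus codes in RefSeq's genes (TAIR10.1). That source holds no descriptions or sequences, so function classes and promoter motifs that had been planned are not reported.

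Values were analysed as log2(intensity + 16). A model of the 3 groups without a block was fitted in limma 3.58.1 (R 4.3.3) to all 13513 one-gene probe sets, with empirical Bayes variances and Benjamini-Hochberg adjustment within each of 3 comparisons, checked on simulated data. Tables and figures used Python 3.11.15, pandas 2.3.3 and matplotlib 3.10.9. Replicate numbers were not used as pairs in the main model. Deviations of same-numbered arrays nonetheless had positive correlations in every pair, from 0.02 to 0.32, with 0.14 to 0.32 for number 3. Pairs of a replicate 1 with a replicate 2 array of another group were positive too, from 0.04 to 0.15. Those of replicate 3 with replicate 1 or 2 were negative. Calls with a replicate block are given below. The members and lists were chosen with earlier results of these data known. Members were named by brightness, spread, replicate SD and closeness to the limit, which together with the values by array covers all 22. GAPC2, AT2G17850, AT2G31390 and the control probe sets were named after their values were seen. The model of every probe set and the fit without replicate 3 were also added then. With 3 arrays a group, precision is limited by their number.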

Additional observations from a re-analysis of the deposited data

How the results depend on the processing

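The 22 members numbered 43 with median centring, 15 with quantile normalization, 13 with centring on hybridisation controls, 38 with a minimum intensity of 1000, 15 with 2000, 5 with a spread of at most 0.15 and 84 with at most 0.5, and 15 to 25 when 1 array or 1 replicate number was left out. Without replicate 3 there were 17, of which 9 are among the 22, and without protoplast replicate 3 there were 15, of which 13 are. With pseudocounts of 1 and 64 all 22 stayed. Of 374 member spreads recomputed under scalings, pseudocounts and left-out arrays, 338 moved by less than the SD between replicates. Of the 36 that moved by more, 12 came from median centring, 3 from quantile normalization and 16 from centring on hybridisation controls, each over 22 genes, 5 from left-out arrays and 0 from pseudocounts.

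The 978 probe sets called for mannitol-treated against intact cells became 519 with a pseudocount of 1, 637 with centring on hybridisation controls and 363 to 1466 with arrays left out (426, 446 and 499 without intact replicate 1, 2 or 3, 505 and 363 without osmotic replicate 1 or 2). The 6058 for protoplasts against intact cells ran from 5367 to 6587 with arrays left out and the 5241 for protoplasts against mannitol-treated cells from 4364 to 6042. Of the calls between protoplasts and intact cells 64.9% were lower in protoplasts as deposited and 48.3% with median centring, and between protoplasts and mannitol-treated cells 65.9% as deposited, 46.3% with median centring and 77.0% with centring on hybridisation controls. Same-numbered arrays correlated above 0.1 in 7 of 9 pairs, and in 12 of 18 cases an array correlated best with its own number. Pairs of a replicate 1 with a replicate 2 array also correlated at 0.04 to 0.15, so these counts do not show pairing within numbers 1 and 2. With a replicate block 1130, 6262 and 5496 probe sets were called for mannitol-treated against intact cells, protoplasts against intact cells and protoplasts against mannitol-treated cells. No member was called under any of these settings, from which nothing is read, since the rule chose on these contrasts. The causes of these changes were not tested.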

Other observations

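The same limits kept 13 of 86 bright probe sets with a symbol other than a locus code, and for several of these the function is known. ACLA-1, a subunit of the ATP-citrate lyase that makes cytosolic acetyl-CoA, had a spread of 0.05. It read 3204, 3311 and 4354 in protoplasts, 3058, 3115 and 4569 in mannitol-treated cells and 3316, 3245 and 4490 in intact cells. ATSTE24, a protease that trims prenylated proteins, also had 0.05 and read 2102, 1922 and 2646 in protoplasts, 2243, 2219 and 2390 in mannitol-treated cells and 2173, 2376 and 2130 in intact cells. ARA6, a Rab GTPase of endosomes, had 0.15 and read 2029, 2027 and 2313 in protoplasts, 2013, 2255 and 2266 in mannitol-treated cells and 1903, 1755 and 2236 in intact cells. The groups overlapped in all 3 of these genes, and in ACLA-1 the highest array of every group was replicate 3. The ubiquitin-conjugating enzyme gene UBC28 stood at the limit with a spread of 0.25. It read 5468, 6403 and 5481 in protoplasts, 6787, 7310 and 6083 in mannitol-treated cells and 6388, 6580 and 4302 in intact cells. Genes of the plastid genome were among the 13: rpoA, for a subunit of the plastid RNA polymerase, had a spread of 0.15, atpB, for the beta subunit of ATP synthase, 0.15, psaJ of photosystem I 0.16, the ribosomal protein gene rpl36 0.19 and psbF of photosystem II 0.24. The brightest of these was atpB, which read 13111, 13724 and 12364 in protoplasts, 12779, 10680 and 11972 in mannitol-treated cells and 13053, 11408 and 12414 in intact cells. These spreads are on the deposited scale, and they chose the genes, so they are a description.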
